A study of Homo sapiens with 179 samples.

Results

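The 10 genes FOS, FOSB, JUN, JUNB, EGR1, IER2, NR4A1, ATF3, DUSP1 and MYC were followed as a set of immediate early genes in the human embryonic stem cell line H1, an established pluripotent line. They were found by symbol, and all 10 were among the 19084 genes of both deposited tables. Every library came from H1 cells grown in E8, a defined medium, on Matrigel, with no other treatment and no change of genotype. Different kinds of library preparation were compared. The TruSeq kit gave 6 libraries, 3 labelled H1p16 and 3 labelled H1p43, run 12 to a sequencing lane. LM-Seq, a ligation-mediated, strand-specific protocol made to be cheap and highly multiplexed, gave the remaining libraries: 95 in Lane 1, 48 in Lane 2, 24 in Lane 3 and 6 in Lane 4. The labels do not say what the numbers after the letter p stand for, nor whether replicates were separate cultures, so p-values measure only how far libraries of 1 group differ, which may be technical. The LM-Seq libraries carry no p label, so the protocol and the cells that went into it cannot be told apart.

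Immediate early genes are switched on within minutes of a growth factor, stress or fresh medium reaching a cell, without new protein synthesis, mainly through MAP kinase signals that act on factors already bound at their promoters. Most of their transcripts are short-lived, so their level in unstimulated cells reads recent signalling and handling. FOS, FOSB, JUN and JUNB are subunits of the dimeric transcription factor AP-1, EGR1 and NR4A1 are DNA-binding factors, ATF3 is a stress-induced factor of the ATF family, MYC drives growth genes, DUSP1 is a phosphatase that shuts MAP kinases off, and IER2 is a small nuclear protein.

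The promoters of 4 members are shown because these genes came out differently below: FOS and JUN were lower in H1p43, EGR1 was higher, and FOSB was nearly silent in all groups. Each is the 250 bases before the transcription start, 5′ to 3′ on the gene's own strand, from the RefSeq promoter table on GRCh38.p14, a later build than the hg19 used for the counts. Capitals mark TATAAA, the 5-base cyclic AMP response core TGACG on either strand (CGTCA when reversed), and the CArG box to which serum response factor binds. FOS lies at chr14:75278578-75278827 on the plus strand, FOSB at chr19:45467746-45467995 on the plus strand, JUN at chr1:58784048-58784297 on the minus strand and EGR1 at chr5:138465229-138465478 on the plus strand.
FOS: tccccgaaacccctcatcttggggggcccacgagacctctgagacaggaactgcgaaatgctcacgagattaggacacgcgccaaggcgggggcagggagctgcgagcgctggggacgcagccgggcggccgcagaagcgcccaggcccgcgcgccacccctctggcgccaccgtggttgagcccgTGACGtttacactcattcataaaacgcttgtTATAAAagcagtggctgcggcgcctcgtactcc
FOSB: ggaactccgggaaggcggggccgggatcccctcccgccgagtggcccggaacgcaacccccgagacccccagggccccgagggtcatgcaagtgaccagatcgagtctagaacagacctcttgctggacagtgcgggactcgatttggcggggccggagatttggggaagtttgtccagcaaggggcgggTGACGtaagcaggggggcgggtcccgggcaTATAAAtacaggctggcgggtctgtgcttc
JUN: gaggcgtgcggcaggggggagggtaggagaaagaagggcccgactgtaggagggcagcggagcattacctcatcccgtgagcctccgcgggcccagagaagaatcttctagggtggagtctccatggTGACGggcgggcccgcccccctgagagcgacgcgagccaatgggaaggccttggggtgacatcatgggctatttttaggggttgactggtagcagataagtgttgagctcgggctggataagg
EGR1: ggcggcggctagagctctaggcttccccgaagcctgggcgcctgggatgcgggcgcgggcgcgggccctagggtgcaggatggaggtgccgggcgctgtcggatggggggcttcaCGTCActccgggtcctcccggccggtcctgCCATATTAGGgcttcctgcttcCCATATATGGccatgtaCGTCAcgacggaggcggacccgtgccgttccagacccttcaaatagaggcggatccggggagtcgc
FOS and FOSB carried the same pair of motifs at nearly the same places. TGACG began 64 bases before the start in FOS and 60 in FOSB, and TATAAA began 33 bases before it in FOS and 30 in FOSB. EGR1 was the member with CArG boxes in its window, 2 of them, and also held CGTCA 2 times. The table held 9 of the 10 members in 11 windows, NR4A1 and ATF3 having 2 each. TATAAA was in 5 of the 11 windows against 10.7% of all 35116 windows, TGACG in 7 against 21.2%, the CArG box in 1 against 1.16%, and the AP-1 site TGACTCA in 0 against 4.2%. Both strands were searched for each motif, and the only matches that overlapped were 2 of TGACG in the DUSP1 window. These are letter matches in a short window and say nothing of binding.

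Library totals ran from 23680503 to 30628645 expected counts in H1p16, 29018106 to 35852646 in H1p43 and 15780078 to 16583048 in Lane 4. The other LM-Seq lanes were shallower, with 4028607 to 4918577 for Lane 3, between 2005736 and 2739084 for Lane 2, and from 1040671 up to 1539277 for Lane 1. All 6 pluripotency markers (POU5F1, NANOG, SOX2, LIN28A, DNMT3B and TDGF1) were above 1 TPM in each group. Their summed level was 6860 to 7139 TPM in H1p16, 5918 to 5953 in H1p43 and 7499 to 8570 in the LM-Seq libraries of Lane 1. No group had a mean of 1 TPM or more for any of 7 mesendoderm, 3 blood or 3 endothelial markers. Of 7 stromal markers 4 were above 1 TPM, while DCN and LUM were at 0, with sums of 558.6 to 593.9 TPM in H1p16, 489 to 503 in H1p43 and 331.7 to 453.7 in Lane 1. Most of that sum was THY1, also known from pluripotent cells, with means of 494.9, 387 and 250.7 TPM in those groups. The other 3 went other ways: COL1A2 had 29.29, 50.68 and 64.34 TPM, COL1A1 44.91, 45.74 and 78.88, and PDGFRB 6.67, 12.54 and 3.99. Of 5 neuroectoderm markers only NES, also known from pluripotent cells, reached 1 TPM. Its list summed to 130.99 to 138.5 TPM in H1p16, 111.7 to 113.8 in H1p43 and 161.1 to 363 in Lane 1. The part of these marker shifts in the results below was not tested. In bulk RNA, fewer cells of a type and less RNA per cell cannot be told apart.

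Libraries are tied across lanes by a number in their labels, and 2 of these numbers, called library A and library B here, stood apart from the rest. Their median correlation with the other libraries of Lane 1, over genes above 20 TPM, was 0.953 and 0.954, where the middle library had 0.971. In Lane 2 the same numbers were again the lowest, at 0.963 and 0.965 against 0.98, and library B was lowest in Lane 3, at 0.972 against 0.987. Library A was not in Lane 3, and neither was in Lane 4. NES was highest in library B in Lanes 1, 2 and 3 (361.7, 351.51 and 365.68 TPM) and lowest in library A in both of its lanes (160.1 and 157.19 TPM).

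By TPM, a level scaled to transcript length and library, IER2 was the most abundant member in every group, followed by MYC, and FOSB the least. In Lane 1 the means were 160.97 ± 17.25 TPM for IER2, 78.79 ± 9.5 for MYC, 20.48 ± 4.75 for ATF3, 18.52 ± 4.44 for FOS, 13.05 ± 3.19 for JUN and 10.6 ± 2.95 for EGR1 (SD, n = 95). DUSP1, NR4A1, JUNB and FOSB followed at 4.93 ± 2.35, 2.81 ± 1.68, 2.62 ± 1.65 and 0.49 ± 0.58 TPM. Neighbours in that order such as ATF3 and FOS, or NR4A1 and JUNB, differed by less than 1 SD. FOSB had no read in 45 of the 95 libraries of Lane 1, where its median was 1 count.

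**Figure D1:**
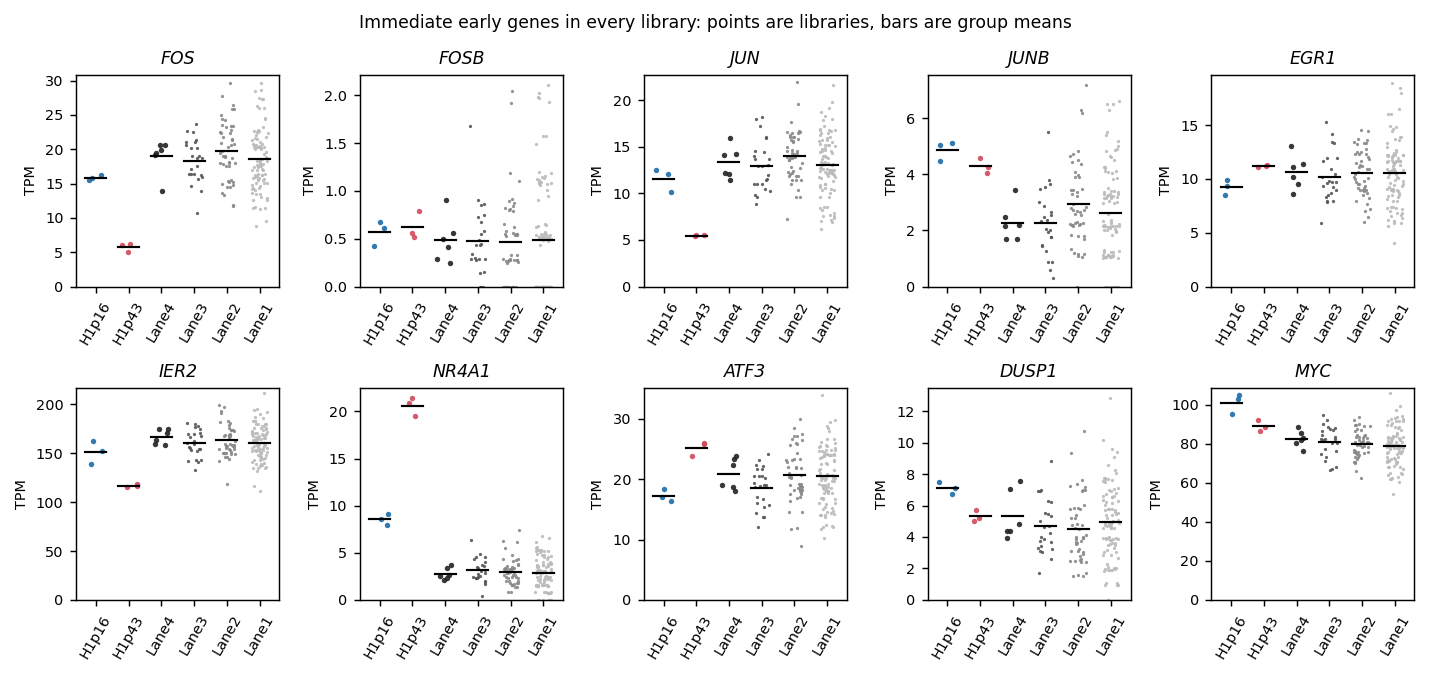
Level of each member in TPM (linear axis from 0, its own scale in each panel) in the 3 H1p16, 3 H1p43, 6 Lane 4, 24 Lane 3, 48 Lane 2 and 95 Lane 1 libraries; points are libraries and bars are group means. FOS and JUN are low in H1p43, NR4A1 is high there (20.6 TPM on average) and low in every LM-Seq lane, and the 4 lanes lie at like means with a spread that widens toward Lane 1.

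The first comparison set H1p43 against H1p16, both made with TruSeq. FOS and JUN fell and NR4A1 rose, each by more than 2-fold, while the other members moved less. Among all genes tested, 7.31% changed by 2-fold or more in either direction. The median size of the log2 fold change was 0.45 over the members and 0.28 over all genes. Of the 10 members, 9 passed edgeR's quasi-likelihood test at an adjusted p below 0.05, 3 higher and 6 lower in H1p43. Over all 14574 genes tested, 71.8% passed the same test, so the count says little about these genes beyond the general difference between the groups. The members' median log2 fold change was -0.29, against 0.01 over all genes. For 8 of the 10 the 3 libraries of one group lay wholly above the other's, and so it was for 76% of the 13029 genes that averaged 1 TPM or more.

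Among the AP-1 genes, FOS had 15.54, 15.88 and 16.24 TPM in H1p16 and 6.26, 6.05 and 5.04 TPM in H1p43. The groups did not overlap, and FOS was 2.98-fold lower in H1p43 (log2 fold change -1.58 ± 0.08 SE, adjusted p = 5.4e-12). JUN, its usual partner, had 12.08, 12.47 and 10.11 TPM in H1p16 and 5.5, 5.4 and 5.49 TPM in H1p43. It too was lower in every H1p43 library, by 2.28-fold (-1.19 ± 0.08, adjusted p = 1.9e-10). JUNB had 5.1, 5.04 and 4.47 TPM in H1p16 and 4.25, 4.57 and 4.06 TPM in H1p43, and the lowest H1p16 library lay below the highest H1p43 one. Its change of -0.29 ± 0.11 passed the test (adjusted p = 0.025) but not with DESeq2 (adjusted p = 0.0881). It also missed it without H1p16 replicate 1 or 2 or without H1p43 replicate 1 or 3, with adjusted p from 0.05705 to 0.09038. FOSB had 0.61, 0.68 and 0.42 TPM in H1p16 and 0.56, 0.79 and 0.52 TPM in H1p43, a difference well inside its spread (standard error 0.24 in log2 units, adjusted p = 0.99). The AP-1 genes thus did not move as one: FOS and JUN fell together by more than 1 log2 unit, while JUNB and FOSB changed little or not detectably.

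NR4A1, an orphan nuclear receptor also called Nur77, went the other way. It had 7.96, 8.6 and 9.16 TPM in H1p16 and 20.85, 21.43 and 19.53 TPM in H1p43, with no overlap, and was 2.22-fold higher (1.15 ± 0.06, adjusted p = 1.7e-11). ATF3 had 16.44, 18.31 and 17.01 TPM in H1p16 and 25.81, 25.93 and 23.79 TPM in H1p43. It was 1.34-fold higher in H1p43, again without overlap (0.42 ± 0.05, adjusted p = 1.6e-06). EGR1, the zinc-finger factor whose CArG boxes are printed above, had 9.86, 9.36 and 8.55 TPM in H1p16 and 11.23, 11.26 and 11.11 TPM in H1p43. Every H1p43 library was above every H1p16 library, but the step was small (0.17 ± 0.06, adjusted p = 0.016). It did not pass with DESeq2 (adjusted p = 0.08465) or without H1p16 replicate 3 (adjusted p = 0.1067).

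The 3 remaining members were lower in H1p43 without overlap. DUSP1, the phosphatase that ends MAP kinase signals, had 7.5, 7.11 and 6.74 TPM in H1p16 and 5.04, 5.22 and 5.69 TPM in H1p43 (-0.52 ± 0.09, adjusted p = 5.3e-05). IER2 had 162.86, 152.78 and 139.24 TPM in H1p16 and 118.6, 116.05 and 116.08 TPM in H1p43 (-0.48 ± 0.04, adjusted p = 5.2e-09). MYC had 105.14, 102.99 and 95.23 TPM in H1p16 and 92.21, 86.66 and 88.77 TPM in H1p43 (-0.29 ± 0.04, adjusted p = 8.9e-07). These are changes of 1.22- to 1.44-fold.

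Other genes of the same class moved in both directions as well. Of 27 further immediate early genes tested, 10 were higher and 10 lower in H1p43, and 7 did not pass, where 71.8% of all genes passed. Those with the lowest adjusted p were the survival factor MCL1 (log2 fold change -0.65 ± 0.02), IER5 (1.03 ± 0.06) and the pseudokinase TRIB1 (-0.64 ± 0.04). MCL1 had a mean of 222.3 TPM in H1p16 and 153.1 in H1p43, and IER5 had 8.05 and 17.69 TPM. Among 10 feedback genes of the ERK pathway, 4 were higher and 5 lower, led by the phosphatases DUSP5 (-0.73 ± 0.04) and DUSP6 (0.35 ± 0.02) and the ETS factor ETV4 (-0.40 ± 0.03). Of 19 kinases and promoter-bound factors upstream of these genes, 9 were higher and 4 lower. MAP2K1 (0.37 ± 0.03), RPS6KA3 (0.52 ± 0.06) and MAPK14 (0.29 ± 0.03), all kinases of MAP kinase cascades, had the lowest adjusted p there. Each of these lists held calls in both directions, as did the members and all genes tested, with 5305 higher and 5155 lower. The mixed directions thus say little about the lists themselves.

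Proteins that bind AU-rich elements, through which short-lived messages are broken down or stabilised, were mostly lower: 5 of 6 fell and 1 rose, with HNRNPD at -0.25 ± 0.02, ZFP36L2 at -0.49 ± 0.04 and KHSRP at -0.32 ± 0.03. ZFP36 is on this list and on that of immediate early genes. All 9 tested members of the MYC network passed, 4 higher and 5 lower. MYCL1 (1.22 ± 0.04) and the MYC antagonist MXI1 (1.2 ± 0.07) rose while MYCN (-0.68 ± 0.03) fell, so the MYC paralogs differed in direction. Of 7 inducible heat shock genes 6 fell and 1 rose, with the chaperone HSPA8 at -1.16 ± 0.02, HSPH1 at -0.57 ± 0.02 and HSPA1B at -0.64 ± 0.04. Of 7 genes of the ATF4 stress response, to which ATF3 also belongs, 5 rose and 1 fell. ASNS (0.64 ± 0.03), DDIT4 (1.23 ± 0.06) and CHAC1 (0.50 ± 0.04) led that list. Pluripotency markers fell in 5 of 6 cases, with DNMT3B at -1.03 ± 0.02. Over all genes tested 71.8% were called, 5305 higher and 5155 lower. The median log2 fold change was -0.5 for the heat shock list, -0.39 for the MYC network and -0.28 for AU-rich element binding proteins. It was -0.26 for the pluripotency markers and 0.38 for the ATF4 stress genes, against 0.01 over all genes. Whether any list differs from the rest was not tested.

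The second comparison set LM-Seq against TruSeq, with Lane 4 as the LM-Seq lane nearest in depth. JUNB and NR4A1 were lower in Lane 4 than in every TruSeq library. FOS, JUN and IER2 were higher in Lane 4 than in H1p43 and did not pass against H1p16 with all libraries in. Against the 6 TruSeq libraries together, 5 of 10 members passed the test, 3 higher and 2 lower, where 71.3% of 13827 genes did. Against H1p16 alone 3 passed, all lower (3 to 5 with 1 Lane 4 library left out), where 66.8% of 13808 genes did. Against H1p43 alone 5 passed, 3 higher and 2 lower, where 73.2% of 14089 genes did. These 3 comparisons share libraries and are read side by side only.

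NR4A1 had a lowest, middle and highest value of 2.14, 2.58 and 3.72 TPM over the 6 Lane 4 libraries, below the lowest TruSeq library at 7.96 TPM. It was 3.17-fold lower than in H1p16 (-1.67 ± 0.19, adjusted p = 1.3e-07) and 6.98-fold lower than in H1p43 (-2.80 ± 0.15, adjusted p = 7.1e-12). JUNB had 1.68, 2.18 and 3.43 TPM in Lane 4, again below all TruSeq libraries, the lowest of which had 4.06. It was 2.18-fold lower than in H1p16 (-1.13 ± 0.29, adjusted p = 0.0018) and 1.76-fold lower than in H1p43 (-0.82 ± 0.30, adjusted p = 0.023). These were the 2 members without overlap between Lane 4 and the 6 TruSeq libraries, a pattern shown by 57% of 12914 genes. The TruSeq kit does not keep the strand of a transcript while LM-Seq does, and no source used here says whether counting used the strand, so reads from genes that overlap on opposite strands cannot be told apart in TruSeq; the part of this in the 2 differences was not tested.

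FOS had 13.87, 19.73 and 20.63 TPM in Lane 4. The lowest library overlapped H1p16 (0.22 ± 0.12, adjusted p = 0.11), and all 6 lay above the H1p43 libraries (1.81 ± 0.15, adjusted p = 3e-09). The overlap rested on that 1 library: the other 5, at 19.23 TPM or more, lay above the highest H1p16 library at 16.24. Without it the difference from H1p16 was 0.30 ± 0.10 (edgeR, adjusted p = 0.0129). That library was picked for its low FOS, so this value is a description and not a test. With any other Lane 4 library left out, FOS did not pass against H1p16 (adjusted p of 0.129 to 0.173). JUN, with 11.46, 13.15 and 15.93 TPM, showed the same order: it overlapped H1p16 (0.18 ± 0.12, adjusted p = 0.20) and was 2.61-fold above H1p43 (1.39 ± 0.12, adjusted p = 1.1e-08). IER2, with 158.68, 167.2 and 174.99 TPM, also overlapped H1p16 (0.11 ± 0.06, adjusted p = 0.098) and was above H1p43 (0.61 ± 0.05, adjusted p = 2.9e-09). The called differences of these 3 genes from pooled TruSeq (FOS 0.82 ± 0.30, JUN 0.67 ± 0.24, IER2 0.34 ± 0.10) did not pass against H1p16 alone with all 6 libraries of Lane 4. Leaving out any 1 Lane 4 library, chosen as a check after the data were seen, JUN and IER2 still did not pass (adjusted p of at least 0.103 and 0.0553).

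MYC showed the reverse order. It had 76.27, 82.37 and 88.57 TPM in Lane 4, below all H1p16 libraries (-0.32 ± 0.06, adjusted p = 4.8e-05) and overlapping H1p43 (-0.01 ± 0.05, adjusted p = 0.87). Against pooled TruSeq it just missed the test (-0.17 ± 0.08, adjusted p = 0.052). It passed with Lane 3, Lane 2 or Lane 1 in place of Lane 4, without a filter on low counts, and with limma on TPM, always lower in LM-Seq. EGR1 (8.59, 10.66 and 13.03 TPM), ATF3 (17.98, 20.76 and 23.85), DUSP1 (3.94, 4.59 and 7.59) and FOSB (0.25, 0.46 and 0.9) differed from neither TruSeq group by the test. ATF3 was near the threshold against H1p16 (0.25 ± 0.11, adjusted p = 0.0573) and passed without any 1 of 3 Lane 4 libraries (adjusted p of 0.0303, 0.0344 and 0.0445). For DUSP1 the test left wide room, with -0.44 ± 0.22 against H1p16 and 0.11 ± 0.24 against H1p43, and it passed against H1p16 without any 1 of 2 Lane 4 libraries (adjusted p of 0.0238 and 0.0377) and against pooled TruSeq with Lane 3 (adjusted p = 0.04371) or Lane 2 (adjusted p = 0.01171).

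**Figure D2:**
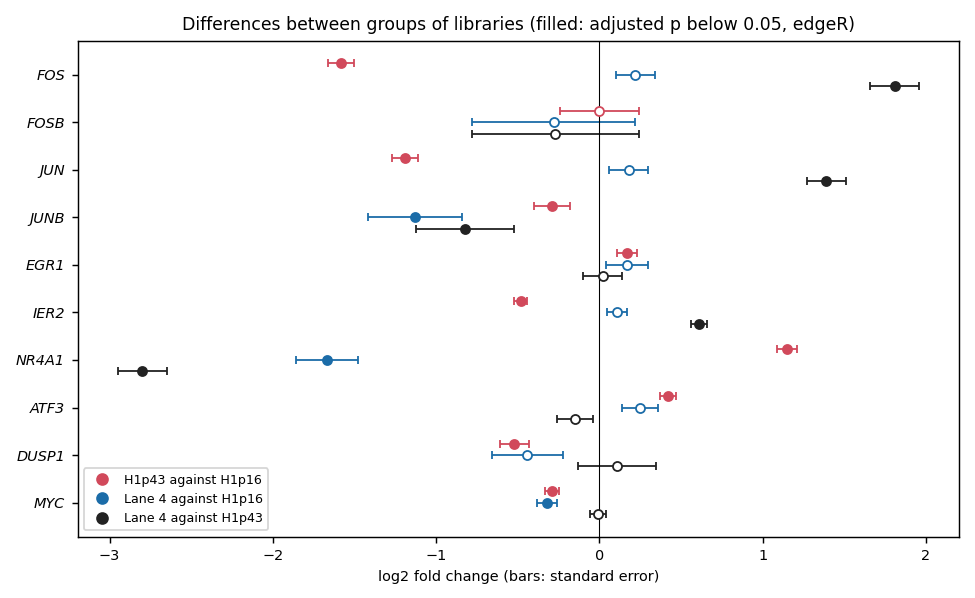
Log2 fold change with its standard error (bars) for each member in H1p43 against H1p16 (red), Lane 4 against H1p16 (blue) and Lane 4 against H1p43 (black); filled points passed edgeR's test at an adjusted p below 0.05. For FOS, JUN and IER2 the blue points lie near 0 and the black ones at 1.81, 1.39 and 0.61, whereas NR4A1 and JUNB are below 0 against both TruSeq groups.

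The related lists were mixed here too, and their counts stand beside 71.3% of all 13827 genes called against pooled TruSeq. Of the 27 further immediate early genes, 7 were higher and 9 lower in Lane 4 than in TruSeq, where H1p16 alone gave 7 and 5 and H1p43 alone 8 and 9. PPP1R15A, which ends the stress block on translation, had 51.25 TPM in Lane 4 and 19.67 in H1p16 (1.5 ± 0.08 against TruSeq), and the matrix protein CYR61 had 50.77 and 73.68 TPM (-0.74 ± 0.08). IER5L had 0 counts in the 6 libraries of Lane 4 and a mean of 0.59 TPM in H1p16 and 0.85 in H1p43, so it was at least 31.1-fold lower, taking 3 counts over the group as the floor. The other LM-Seq lanes held a few of its reads, 8 in Lane 1, 6 in Lane 2 and 5 in Lane 3, with means of 0.062, 0.047 and 0.042 TPM. ERK feedback genes split 3 higher to 3 lower of 10, with the inhibitors SPRED1 (0.98 ± 0.07), SPRY1 (0.80 ± 0.09) and SPRED2 (-0.60 ± 0.07) named by lowest adjusted p. Upstream kinases and factors split 6 higher to 9 lower of 19, with the ETS factor ELK4 at 1.29 ± 0.06, MAP2K2 at -1.06 ± 0.06 and CREB1 at 0.89 ± 0.05. Of the 9 MYC network genes 6 were lower and 0 higher (MXD4 -1.35 ± 0.13, MLX -0.79 ± 0.11, MYCL1 -1.05 ± 0.24), but this too depended on the TruSeq group: 5 lower and 0 higher against H1p16, and 5 lower and 2 higher against H1p43. MYCL1 averaged 10.31 TPM in Lane 4, 13.18 in H1p16 and 32.65 in H1p43, and its difference was -0.33 ± 0.12 from H1p16 and -1.53 ± 0.11 from H1p43. Of the 7 ATF4 stress genes 6 were lower and 0 higher, with 5 and 6 lower and 0 higher against H1p16 and H1p43 alone (ATF4 -0.85 ± 0.05, SESN2 -1.53 ± 0.11, CHAC1 -1.85 ± 0.15). AU-rich element binding proteins were 1 higher and 2 lower of 6 (HNRNPD 1.13 ± 0.06, ELAVL1 -0.67 ± 0.07, ZFP36 -0.54 ± 0.16). Heat shock genes were 4 higher and 2 lower of 7 (HSPB1 -1.47 ± 0.09, HSP90AA1 0.73 ± 0.05, HSPH1 0.93 ± 0.11). These lists also depended on the TruSeq group. Against H1p16 alone, heat shock genes were 3 higher and 3 lower, AU-rich element binding proteins 2 and 3, and ERK feedback genes 2 and 4. Against H1p43 alone these were 5 and 2, 2 and 1, and 5 and 4. Upstream kinases and factors changed less, with 6 and 8 against H1p16 and 5 and 9 against H1p43.

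The third question was whether depth per lane moved the members, over library numbers that 2 lanes share. No member did so detectably. Against Lane 1, 0 of 9 members tested passed in Lane 4, 0 of 7 in Lane 3 and 0 of 6 in Lane 2, by edgeR and by DESeq2. The filter on low counts left FOSB untested in each, JUNB and NR4A1 in Lanes 3 and 2, and DUSP1 in Lane 2. In Lane 4 the edgeR test left wide room for JUNB (-0.36 ± 0.48) and NR4A1 (0.19 ± 0.40). Over all genes the shares called were 0.0161% (2 of 12419), 0% (0 of 10871) and 0% (0 of 10120). In Lanes 3 and 2, 216 and 182 genes had an unadjusted p below 0.05. With the library number as a block, which pairs the lanes, the shares were 0.105% (13), 0.405% (44) and 0.257% (26), and again 0 members passed. Over all libraries of each lane, shared or not, FOS averaged 18.52, 19.81, 18.32 and 18.97 TPM in Lanes 1 to 4, with SDs of 4.44, 4.28, 3.13 and 2.56. IER2 averaged 160.97, 163.3 and 160.3 TPM in Lanes 1 to 3, with a median of 167.2 in Lane 4, and NR4A1 averaged 2.81, 3.01, 3.14 and 2.78 TPM. The means differed by less than 1 SD, and what changed from Lane 4 to Lane 1 was the spread.

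Counting error made up most of that spread for most members. Over the 95 libraries of Lane 1, FOS ranged from 8.78 through a median of 18.04 to 29.66 TPM, on 9 to 36 reads. Its variance was 1.15 times what counting alone gives, leaving a coefficient of variation of 8.36% beyond a counting part of 22.2%. JUN (1.33 times), EGR1 (1.30), ATF3 (1.18), MYC (1.35), NR4A1 (1.31), FOSB (1.33) and DUSP1 (1.14) were alike, and JUNB, on a median of 2 counts, was at 0.954. The median gene with at least 10 counts had 1.54. IER2, the most abundant member, had the highest ratio at 1.98, above 81.2% of those genes, with 7.41% of variation beyond a counting part of 7.73%. For a given variation beyond counting, this ratio grows with the mean count, so its rank is not matched for depth. The 7.41% was below the 9.54% of the median gene, and among members only MYC (5.79%) and JUNB (0%) had less. Libraries B and A held the lowest and highest values of IER2 in that lane. Without them the ratio was 1.61, above 61.7% of genes and close to the median gene at 1.51, and the variation beyond counting was 5.94%. At the median of 20 reads per library for FOS and 4 for NR4A1, moderate differences between single libraries of Lane 1 were not detectable.

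**Figure D3:**
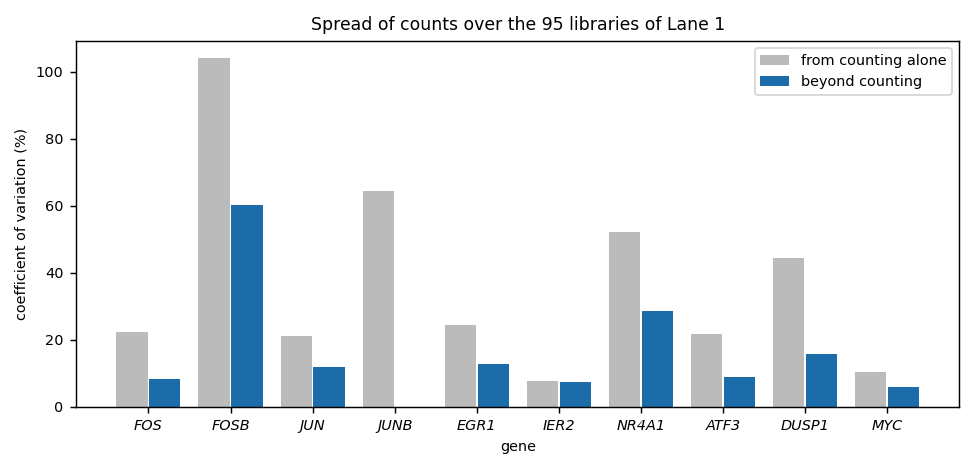
Coefficient of variation in percent of each member's counts over the 95 libraries of Lane 1, split into the part from counting alone (grey) and the part beyond it (blue). IER2 is the member whose part beyond counting (7.41%) comes nearest to its counting part (7.73%), and without libraries A and B it is 5.94%; for JUNB the part beyond counting is 0.

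Between Lanes 1 and 2, IER2 was the member whose level in a library repeated most closely. Over the 48 library numbers in both lanes, its log2 level (log2 CPM, counts scaled to the library, with a prior count of 2) in Lane 1 followed that in Lane 2 with Pearson's r = 0.76 and Spearman's rho = 0.71 (permutation p = 1e-05 for both, the smallest 100000 resamples can give). In edgeR, Lane 1 counts of IER2 rose by 0.921 ± 0.137 log2 units per log2 unit in Lane 2 (adjusted p = 2.05e-05 over 8604 genes). It was the 1 member of 6 tested that passed. What share of all genes would pass on their own level was not tested. IER2 also had the most counts of the 6, averaging 167.57 in Lane 1 where the others averaged 17.03 to 95.32. Its r was above that of 93.2% of genes with at least 20 counts, a place not matched for depth. Its lowest Lane 1 library, library B with 111.65 TPM, was also lowest in Lane 2 at 118.28 TPM, and its highest, library A with 212.04 TPM, was second highest in Lane 2 at 197.6. Without these 2 libraries, the ones that stood apart, r was 0.65 and the slope 0.779 ± 0.16 (adjusted p = 0.0159). Without the 2 libraries farthest from the Lane 2 median r was 0.72. With Lane 3 as the second lane (24 numbers) r was 0.50, below that of 5 other members, and the slope, 0.666, did not pass (adjusted p = 0.974).

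The other members repeated less closely between Lanes 1 and 2. FOS and JUN each had r = 0.11 (permutation p = 0.444 and 0.457), lower than in all but 2.93% of genes with at least 20 counts. In Lane 1 they averaged only 20.38 and 22.23 counts, near that floor, and EGR1, DUSP1, NR4A1, JUNB and FOSB lay below it. Fewer counts leave more counting error, so these places among all genes are not matched for depth. NR4A1 had r = 0.22, MYC 0.27, ATF3 0.35, DUSP1 0.36, JUNB 0.37, EGR1 0.38 and FOSB 0.42, where the median gene had 0.42. These are 10 relations, with permutation p-values not adjusted for their number. With Lane 3, over 24 numbers, FOS reached 0.46, EGR1 0.52, ATF3 0.53, MYC 0.60, DUSP1 0.69 and FOSB 0.72, against 0.47 for the median gene, and none passed in edgeR. Without the 2 farthest libraries FOS fell to 0.31, EGR1 to 0.39 and ATF3 to 0.35, while MYC had 0.64, DUSP1 0.61 and FOSB 0.67. JUNB had 0.28 there and NR4A1 0.49, but without the 2 farthest libraries these fell to 0.02 and 0.20, so they rest on those libraries.

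**Figure D4:**
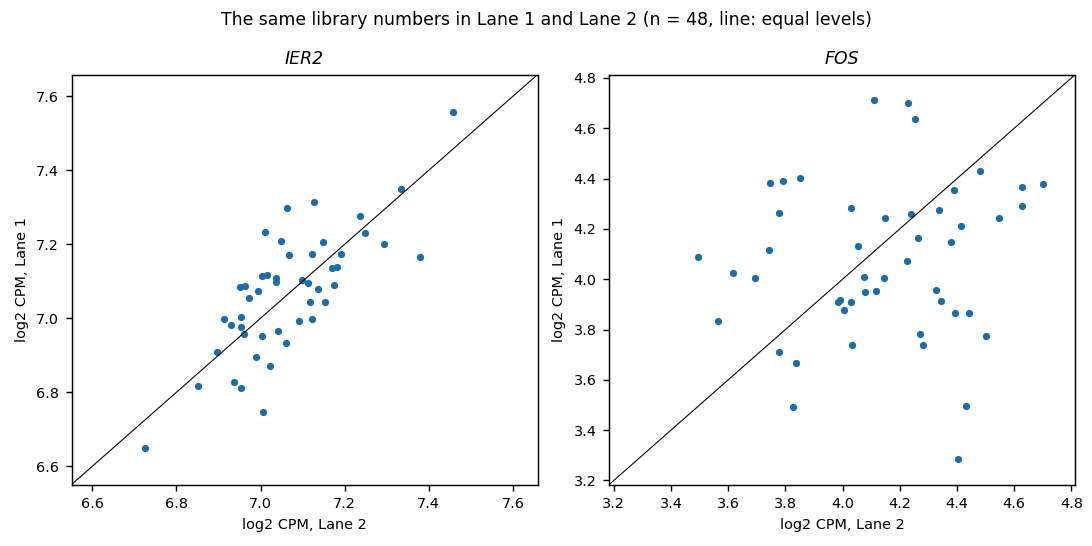
Level of IER2 (left) and FOS (right) in Lane 1 (vertical axis) against Lane 2 (horizontal axis), in log2 CPM, for the 48 library numbers in both lanes; the line marks equal levels. IER2 points follow the line (r = 0.76) with 1 library far down and 1 far up, libraries B and A, and FOS points scatter (r = 0.11).

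In library B several members were low in more than 1 lane, a pattern seen on looking at the library and so a description only. IER2 was the lowest of all libraries in Lanes 1, 2 and 3 (111.65, 118.28 and 133.01 TPM, against medians of 161.1, 159.2 and 159.9). FOS was lowest in Lanes 2 and 3 (11.74 and 10.66 TPM) and 13th lowest of 95 in Lane 1 (13.59 TPM). EGR1 was lowest in Lanes 2 and 3 (6.03 and 5.87 TPM) and had 6.65 TPM in Lane 1. JUNB and NR4A1 had no read in Lane 1 and were lowest in Lane 3, at 0.31 and 0.44 TPM. MYC was below the lane median in all 3 lanes (70.75, 70.85 and 66.99 TPM, against 78.93, 80.5 and 82.4). ATF3 was near its median in Lane 1 (20.44 against 20.22 TPM). It was low in Lanes 2 and 3 (11.71 and 14.34 TPM, against 20.27 and 19). JUN, DUSP1 and FOSB did not clearly share this. JUN had 12.54, 14.53 and 12.92 TPM, close to the lane medians of 12.99, 13.91 and 12.9, and DUSP1 had 6.22, 3.13 and 6.94 TPM, above its medians of 4.81 and 4.44 in Lanes 1 and 3 and below that of 4 in Lane 2. FOSB, at 0.57, 0.29 and 0.3 TPM, was above its median in Lane 1 and below it in Lanes 2 and 3. Genes outside the set moved in this library as well: the pluripotency factor NANOG (82.93, 89.08 and 85.16 TPM against medians of 152.5, 152.7 and 148.2), EIF5A, a translation factor, and ACTB, or beta-actin, were also the lowest of all libraries in the 3 lanes. The part of these shifts in the members' levels was not tested. In library A, by contrast, the low FOS of Lane 1 (8.78 TPM, the lowest of 95) was not seen in Lane 2 (21.73 TPM).

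The last question was whether the members rose and fell together from library to library, as genes answering 1 signal might. No pair did so detectably in Lane 1. Counting error pulls r toward 0, and FOS and JUN each repeated their own level in Lane 2 with r = 0.11 only. Pairs of such genes could thus vary together without being detected. Of the 15 pairs whose members both passed the filter on low counts (FOS, JUN, EGR1, IER2, ATF3 and MYC), 0 passed in edgeR in both directions, and without the filter 0 of 45 did. Over all 45 pairs, r of the log2 levels had a median of 0 and ran from -0.22 for JUN with JUNB (rho = -0.22, permutation p = 0.0329) to 0.17 for EGR1 with IER2 (rho = 0.13, permutation p = 0.102). JUN with NR4A1 was the 1 other pair with an unadjusted permutation p below 0.05 (r = -0.21, rho = -0.20, p = 0.0372). Over the 28505025 pairs of genes with at least 20 counts, the median size of r was 0.088, and over the members' pairs 0.09. These sets are not matched for depth, since EGR1, DUSP1, NR4A1, JUNB and FOSB averaged fewer than 20 counts. FOS and JUN, the AP-1 partners that fell together in H1p43, had r = -0.13 (permutation p = 0.22), and -0.23 without the 2 farthest libraries.

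Some of these values kept their sign from lane to lane and others did not. JUN with JUNB was -0.29 in the 48 numbers of Lane 1 that Lane 2 also holds, -0.15 in the other 47, and -0.04 in Lane 2 itself. In Lane 2 the 45 pairs ran from -0.31 (FOSB with ATF3) to 0.36 (IER2 with NR4A1), and in Lane 3 from -0.71 (FOSB with ATF3) to 0.49 (FOS with JUNB), with medians of -0.02 and 0.02. FOSB with ATF3, the lowest pair in both of those lanes, had r = -0.15 in Lane 1, and across lanes, with one gene read in Lane 1 and the other in Lane 2, it had -0.34 and -0.41. FOSB had a median of 1 count in Lane 1, and this pair was picked out after its values were seen. EGR1 with IER2 (0.17 in Lane 1, 0.12 in Lane 2) and JUN with EGR1 (0.12 and 0.14) also kept their sign. The lanes share library numbers, so they are not independent sets. Without the 2 library numbers that stood apart, the 45 pairs of Lane 1 ran from -0.21 to 0.16.

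**Figure D5:**
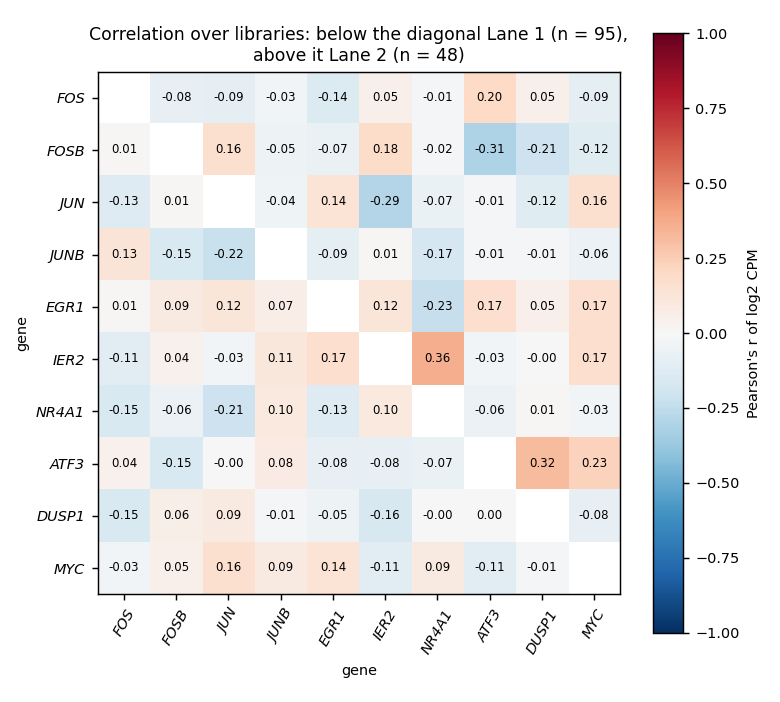
Pearson's r of log2 CPM between members, over the 95 libraries of Lane 1 below the diagonal and the 48 of Lane 2 above it (colour scale from -1 to 1). Values below the diagonal stay between -0.22 and 0.17, and the strongest pairs above it, IER2 with NR4A1 (0.36) and DUSP1 with ATF3, are near 0.10 and 0.00 below it.

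Against all other genes, 8 members had no covarying gene in Lane 1 among those that passed the filter on low counts. The share called was 0% for FOS, JUN, EGR1, ATF3 and MYC (8744 genes each) and for FOSB, JUNB and DUSP1 (8745 each), with 342 to 648 genes at an unadjusted p below 0.05. Without the filter (17099 genes) FOS and DUSP1 had 4 each, JUNB 2, JUN, EGR1, ATF3 and MYC 1 each and FOSB 0, and JUN had 1 without libraries A and B. For IER2 it was 0.229%, 20 genes, of which 17 rose with IER2 and 3 fell. With limma on TPM the share was 0.476%, and with the log2 TPM of IER2 as predictor 1.91%. Without libraries A and B none of 8740 passed, with 0 also in the 47 numbers that Lane 2 lacks. With the IER2 level taken from Lane 2, 1.34% of 8603 genes passed, and 3 genes without those 2 libraries. The most similar genes in Lane 1 (n = 95), among those with at least 20 counts, were EIF5A, a translation factor, at r = 0.45, beta-actin (ACTB) at 0.44 and C11orf10 at 0.42. In Lane 2 these had 0.61, 0.53 and 0.52. Without the 2 libraries they had 0.27, 0.22 and 0.37 in Lane 1 and 0.40, 0.19 and 0.39 in Lane 2.

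For NR4A1 the share was 3.54%, 310 genes, 43 rising with it and 267 falling. Among the members and the other lists, this took in HNRNPD and NES, both falling. NR4A1 had only 0 to 9.57 counts in a Lane 1 library. With its level taken from Lane 2 instead, 0 genes passed, and 382 of 8604 had an unadjusted p below 0.05. In the 48 numbers that Lane 2 holds 195 passed and in the other 47 none did, while without libraries A and B 98 passed. The genes most like the other members in Lane 1 had r from 0.32 to 0.45, and in Lane 2 the same genes had r from -0.21 to 0.29. For FOS these were GDAP1 (0.39, then 0.28), PPP1R10 (0.36, then 0.12) and ZNF711 (0.36, then -0.19).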

How the data were processed

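RNA-seq of 179 H1 libraries was deposited as 2 gene tables, of expected counts and of TPM. Per the submitters' processing notes the authors used CASAVA 1.8.2, Bowtie 0.12.8, RSEM 1.2.3 and hg19; annotation and filters are not given in the sources used here. Expected counts deposited by the authors are RSEM estimates and were rounded; TPM deposited by the authors are scaled per length and library. Groups were taken from the titles. Comparisons used edgeR 4.0.16 (quasi-likelihood, TMM, filterByExpr, Benjamini-Hochberg over all genes tested, threshold 0.05); regressions on a member's level used the same test. Tests on simulated counts covered edgeR without a block for H1p43 against H1p16, Lane 4 against TruSeq and Lane 4 against Lane 1. They also covered a regression over Lane 1, with a predictor free of counting error, unlike a member's level. The members and lists were chosen with earlier results of these data known; named genes are the members, up to 3 called genes of lowest adjusted p per list, and the 3 genes most correlated with each member. After a first run in which filterByExpr saw the predictor or block, which called 241 genes against NR4A1 in place of 310, the filter was set to ignore them. Same-numbered libraries deviated together between lanes (r of 0.423 to 0.489 for Lane 4, 0.246 to 0.648 for Lane 3 and 0.21 to 0.711 for Lane 2, against Lane 1), so the numbers pair the lanes. Alternatives were RLE scaling, DESeq2 1.42.0, limma 3.58.1 on log2(TPM + 1) of genes that averaged 1 TPM or more, no filter, left-out libraries, other lanes and the replicate block.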

Additional observations from a re-analysis of the deposited data

Results flagged for a closer look

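FOS in 1 library of Lane 4 had 13.87 TPM, where the other 5 libraries of that lane had 19.23 to 20.63, and the gap was large against the range of the 6. It was found among 20 such looks, the highest and the lowest library of 10 genes, and chance alone flags about 1 group in 20. The library of the same number gave 13.56 TPM in Lane 1, 17.84 in Lane 2 and 13.88 in Lane 3, on 15, 38 and 56 counts.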

How the results depend on the processing

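The count of members that passed in H1p43 against H1p16 was 9 with RLE scaling, limma and no filter, 7 with DESeq2 and 8 to 9 with 1 library left out. Replicate numbers of the H1p16 and H1p43 libraries do not pair them (correlations of deviations -0.016, 0.111 and -0.025); with the number as a replicate block 9 members passed. Between lanes the library number as a replicate block left the count at 0. For Lane 4 against TruSeq the count was 5, and 3 with the H1p16 libraries only. The count of members that repeated between lanes was 1, and 0 with Lane 3 as predictor, where 24 numbers were tested in place of 48. Leaving out the 2 library numbers that stood apart, scaling or filtering otherwise, chosen in part after the data were seen, left member pairs at 0 and IER2 as the repeated member. No direction of a called member reversed under any alternative run. On the TPM scale the median of all genes moved by 0.09 in H1p43 against H1p16, and 64.4% of calls were higher in place of 50.7%; the members stayed at 3 higher and 6 lower. Depth limits FOSB, JUNB, NR4A1 and DUSP1 most in Lane 1, with medians of 1, 2, 4 and 5 counts per library. It also limits FOS, JUN, EGR1 and ATF3 there. Their coefficients of variation from counting were 22.2%, 21.2%, 24.2% and 21.6%, against 8.36%, 11.7%, 12.8% and 8.95% beyond counting.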
